A study of Mus musculus with 15 samples.

Results

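The genes described here are 35 targets and partners of the transcription factor p53, chosen by name and grouped by role: cell cycle arrest and feedback on p53 (10 genes), apoptosis (15), DNA repair and nucleotide supply (5), and metabolism and stress (5). They are 35 of the 34910 genes whose transcripts were summed in the deposited table. All 35 passed the filter on low counts and are among the 15141 genes tested. The 15 RNA libraries came from mouse neural progenitors, the dividing precursors of neurons and glia, which were cultured with FGF2, EGF and heparin. Every group received a plasmid with EGFP and an shRNA, a hairpin that makes cells degrade RNAs of the same sequence, and GFP-positive cells were sorted on day 3. The 5 groups of 3 libraries were the control hairpin (shControl), a hairpin named for open reading frame 1 of the LINE-1 retrotransposon (shLINE_Orf1), shLINE_Orf2, shLINE_MdV_I, and shLINE_Orf1 given together with a full-length LINE-1 (shLINE_Orf1+LINE-1). The labels tie the added LINE-1 to shLINE_Orf1, and they do not say whether shLINE_Orf2 and shLINE_MdV_I act on young or old elements. They give no genotype, strain or age, and each group rests on 1 hairpin name. LINE-1 transcripts were not analysed here, so the knockdown itself has no value beside these results. Nothing in the labels places replicates in separate cultures, so p-values measure the spread between these libraries, which may be technical.

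p53 is held low in unstressed cells by the ubiquitin ligase Mdm2 and its partner Mdm4. When DNA is damaged or growth signals go wrong, p53 is stabilised and binds response elements near its targets, which arrest the cell cycle, repair DNA or start apoptosis. Mdm2, Ccng1 and Ppm1d are targets that act back on p53 and limit it. In neural progenitors the pathway is known for removing cells with damaged DNA and for limiting self-renewal.

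Gene counts per library ran from 39204327 to 51070601. No pair of replicates was alike within counting noise, as chi-square divided by its degrees of freedom lay between 7.11 for the closest pair and 244.9. Both shLINE_Orf1 replicate 1 and shControl replicate 2 stood apart: their median Spearman correlations with the other libraries were 0.974 and 0.989, against 0.991 to 0.994 elsewhere, and mitochondrial mRNAs took 3.61% and 2.02% of their counts, against 1.36% to 1.97% (1.42% to 1.97% in shLINE_Orf2). Counts of called members are given with and without this pair of libraries. The progenitor markers, 8 genes with Sox2 and Nes among them, summed to between 6034 and 9829 CPM (gene counts as a share of the library size, scaled with TMM factors). The 5 oligodendrocyte markers summed to at most 5.07 CPM, the 5 microglia markers to at most 2.31 with 1 at 0 in all libraries, and the 4 fibroblast markers to at most 0.951. The 4 endothelium markers summed to 21.7 to 48.5 CPM, with 29.9 to 32.7 in shLINE_Orf2, and their part in the results was not tested. In shLINE_Orf2 the 8 neuron markers summed to 397 to 441 CPM and the 5 astrocyte markers to 368 to 411, both inside the range of the other libraries (335 to 521 and 331 to 502). In such bulk samples, fewer cells of a type and less RNA per cell cannot be told apart.

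Of the 5 groups, shLINE_Orf2 alone had p53 target genes with all 3 libraries below all 12 others. Many members had their lowest mean in another group, such as Trp53 (shLINE_Orf1), Bbc3 (shLINE_Orf1+LINE-1) and Mdm4 (shLINE_MdV_I). Pmaip1, which encodes the BH3-only protein Noxa that starts mitochondrial apoptosis, was the 1 member that passed a test of any difference among the groups, and the carbonyl reductase gene Dcxr, the adhesion and apoptosis gene Perp and the death receptor gene Fas came next. In 7 of 35 members all 3 shLINE_Orf2 libraries lay below all 12 others, a pattern that 0.509% of all tested genes showed. These were Dcxr, Pmaip1, Mdm2, Ccng1, Ei24, Perp and Fas. The pattern was counted after the values had been seen and carries no test. The list itself was chosen with earlier results of these data known, so its count beside the share of all genes is a description. In GENCODE M21 (mm10) Mdm2 lies at chr10:117688875-117710758 (minus strand), Ccng1 at chr11:40748552-40755311 (minus strand), Ei24 at chr9:36779159-36797393 (minus strand), Dcxr at chr11:120725399-120727281 (minus strand), Perp at chr10:18845020-18857073 (plus strand) and Fas at chr19:34290666-34327772 (plus strand). Taken over the 35 genes, the median difference in log2 CPM from the mean of shControl was -0.10, -0.12 and -0.15 in the shLINE_Orf2 libraries and between -0.05 and 0.10 in the 12 others, where the same median over all genes lay between -0.02 and 0.01. No member had all 3 libraries above or below all 12 others in shControl, shLINE_Orf1 or shLINE_Orf1+LINE-1 (0.277% to 1.25% of all genes), and 0 lay above in shLINE_Orf2 (0.495%) or below in shLINE_MdV_I (1.07%). In shLINE_MdV_I 1 member, Sesn1, lay above (1.02% of all genes). With RLE scaling the count for shLINE_Orf2 was 7 and without scaling factors it was 6, since Mdm2 dropped out. On the TPM scale it was 7, with Bax in place of Mdm2, and without the pair of libraries that stand apart it was 8, with Pidd1 added (1.37% of all genes).

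**Figure D1:**
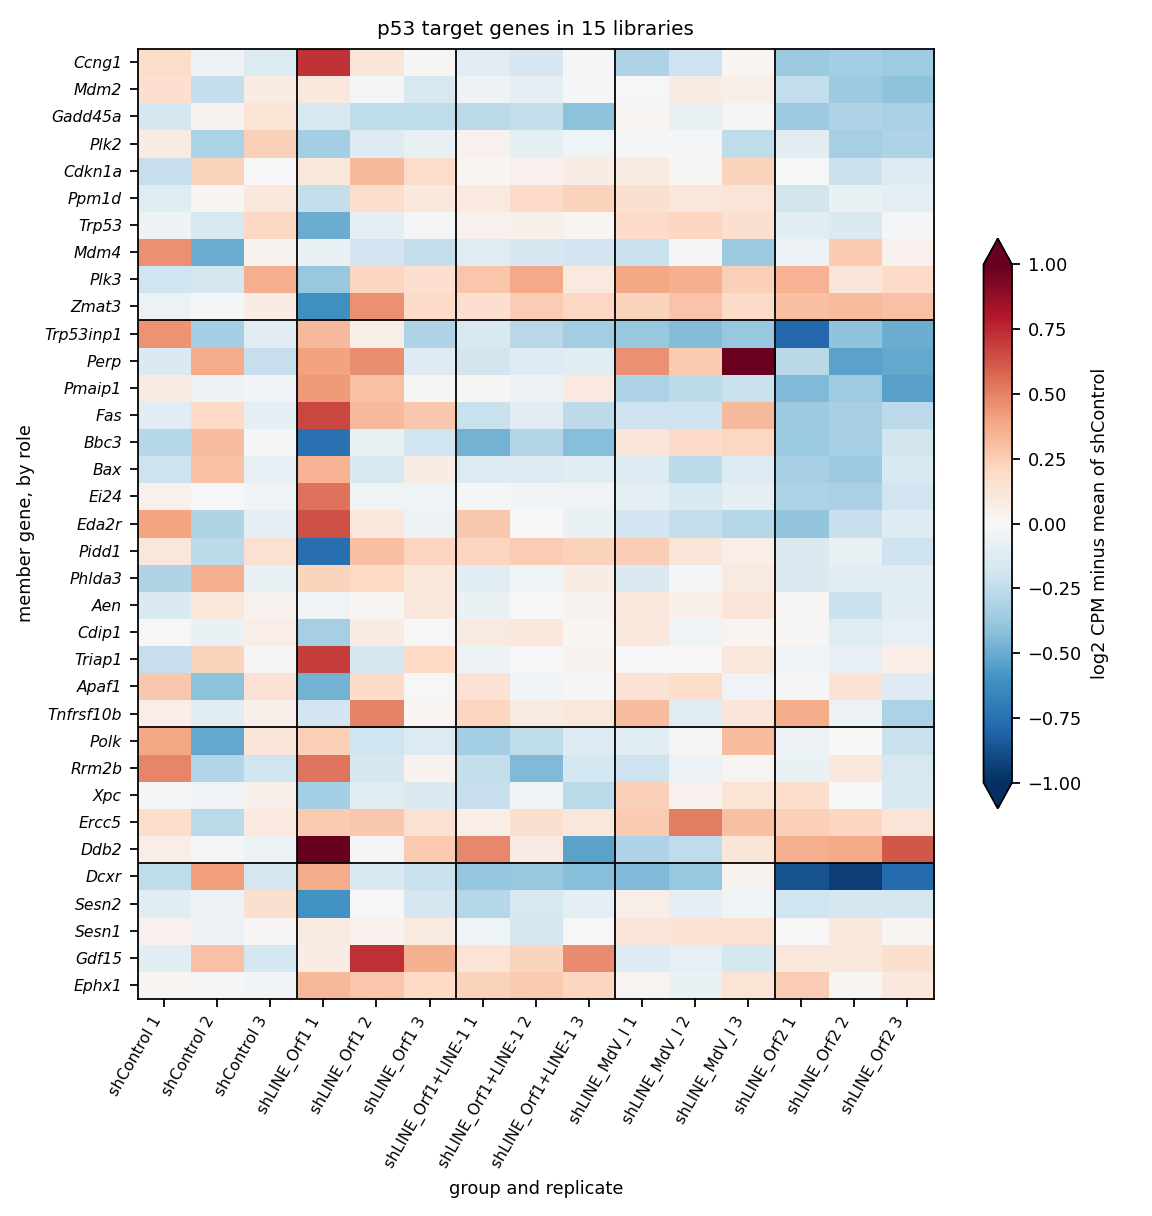
Log2 CPM of the 35 p53 target genes (rows, by role and then by fold change in shLINE_Orf2) in 15 libraries (columns, by group and replicate), as the difference from the mean of shControl. Colours end at 1 and -1. The shLINE_Orf2 columns are blue in the upper rows of the arrest and apoptosis blocks and in Dcxr, and shLINE_Orf1 replicate 1 differs from its own replicates.

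Promoter sequence was available for part of the list. RefSeq windows (GRCm38.p6) from 250 bases before to 50 after a start site matched 27 of the 35 genes, with 36 windows. They were searched for the p53 decamer motif, the consensus 10-base element that p53 response elements hold as a pair and that is its own reverse complement, so that 1 search covers both strands. It was found in 11 of the 27 genes (40.7%), against 9.55% of all genes with a window, and in 12 of the 36 windows, against 8.36% of all windows. The members were listed as targets and partners of p53, so this difference describes the list and not these libraries. The 11 genes with the motif were Gadd45a, Bax, Aen, Ei24, Sesn1, Mdm2, Ccng1, Trp53, Ppm1d, Polk and Cdkn1a. Of the 7 genes lowest in shLINE_Orf2, 5 had a window and 3 of those held the motif, and of the other 22 members with a window 8 did. The 250 bases before the start are printed for 3 members that were lowest in shLINE_Orf2 and hold the motif (Mdm2, Ccng1 and Ei24), for Dcxr, which had the largest difference between shLINE_Orf2 and shControl and no match in its window, and for the upstream start of Cdkn1a, the best-known p53 target. Capitals mark the motif. The spans are chr10:117710759-117711008 (minus strand) for Mdm2, chr11:40755287-40755536 (minus) for Ccng1, chr9:36797335-36797584 (minus) for Ei24, chr11:120727285-120727534 (minus) for Dcxr and chr17:29090729-29090978 (plus) for Cdkn1a.
Mdm2: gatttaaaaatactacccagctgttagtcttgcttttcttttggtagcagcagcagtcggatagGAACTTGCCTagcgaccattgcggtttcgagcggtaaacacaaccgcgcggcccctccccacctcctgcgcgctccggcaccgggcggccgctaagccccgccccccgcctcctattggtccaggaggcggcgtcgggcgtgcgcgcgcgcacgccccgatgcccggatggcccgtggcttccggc
Ccng1: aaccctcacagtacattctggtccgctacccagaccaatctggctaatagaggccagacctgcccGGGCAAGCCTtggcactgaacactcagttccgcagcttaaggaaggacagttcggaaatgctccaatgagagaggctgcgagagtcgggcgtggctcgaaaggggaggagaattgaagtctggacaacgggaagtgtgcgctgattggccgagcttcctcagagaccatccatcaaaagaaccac
Ei24: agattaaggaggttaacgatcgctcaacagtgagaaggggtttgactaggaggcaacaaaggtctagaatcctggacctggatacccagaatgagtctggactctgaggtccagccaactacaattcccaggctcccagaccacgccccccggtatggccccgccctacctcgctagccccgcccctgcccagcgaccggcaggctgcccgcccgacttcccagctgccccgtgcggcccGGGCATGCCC
Dcxr: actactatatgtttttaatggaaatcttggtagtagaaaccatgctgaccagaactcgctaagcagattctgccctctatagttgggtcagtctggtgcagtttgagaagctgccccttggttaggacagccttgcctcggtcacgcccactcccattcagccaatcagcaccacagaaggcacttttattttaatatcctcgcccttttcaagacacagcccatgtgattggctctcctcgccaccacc
Cdkn1a: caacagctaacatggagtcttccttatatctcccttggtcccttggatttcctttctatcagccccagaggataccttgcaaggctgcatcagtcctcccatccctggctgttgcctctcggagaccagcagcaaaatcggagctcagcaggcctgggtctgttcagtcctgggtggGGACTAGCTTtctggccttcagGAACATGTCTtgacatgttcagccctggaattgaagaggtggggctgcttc
Counted from RefSeq's start, the motif lies 186 bases before the start in Mdm2, 185 in Ccng1 and 10 in Ei24, where it ends at the last base before the start. Cdkn1a holds it at 73 and at 51 bases before the start. The GENCODE M21 models of Ei24 and Ccng1 begin further upstream than RefSeq's, at 36797393 and 40755311, so the printed Ei24 motif lies inside the GENCODE model, as do the last bases printed for Ccng1. A match is a description of the sequence and not a site, and binding was not measured.

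Levels per length (TPM, computed from the counts and transcript lengths) covered a wide range in shControl. The highest were the apoptosis effector Bax at 620 ± 40.9 TPM (SD, n = 3, as for all levels) and the cyclin-dependent kinase inhibitor Cdkn1a at 579 ± 43.1, which do not differ beyond their spread. Ephx1, an epoxide hydrolase, followed at 300.2 ± 34.8, and then Ccng1 at 209.6 ± 41.6 and Ei24 at 205 ± 28.0, again within their spread. Trp53 itself stood at 117 ± 25.8, Mdm2 at 43.4 ± 11.4 and Mdm4 at 14.1 ± 6.10. Pmaip1 was in the lower part of the list at 15.3 ± 2.35 TPM, next to Zmat3 at 14.6 ± 2.10. The lowest were Perp at 4.93 ± 0.566, the death receptor Tnfrsf10b at 3.81 ± 0.666 and the damage sensor Ddb2 at 2.17 ± 0.255. In all, 25 of the 35 members lay above the median TPM of the genes tested.

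At an unadjusted p under 0.05, 9 members were lower in shLINE_Orf2 than in shControl (3.23% of all genes). Of these, 5 were apoptosis genes and 3 arrest genes. In that comparison 14 of the 15 apoptosis genes had a negative log2 fold change, against 52.3% of all genes. The median of the 15 was -0.28. None passed edgeR's quasi-likelihood test at a Benjamini-Hochberg adjusted p under 0.05, which 0.192% of all genes did. Against shLINE_MdV_I all 15 were negative (median -0.15), where 47.9% of all genes were. Against shLINE_Orf1 12 were (median -0.30, 48.4% of all genes), and against shLINE_Orf1+LINE-1 14 (median -0.13, 48.0%). Lower at an unadjusted p under 0.05 were 3 apoptosis and 4 arrest genes against shLINE_MdV_I (2.50% of all genes). The counts were 8 and 3 against shLINE_Orf1 (5.87%), and 1 and 2 against shLINE_Orf1+LINE-1 (4.15%). These comparisons share the shLINE_Orf2 libraries.

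Pmaip1 was at 25.5, 23.4 and 23.6 CPM in shControl, 32.5, 29.6 and 24.3 in shLINE_Orf1, 24.4, 23.3 and 25.9 in shLINE_Orf1+LINE-1, 19.5, 20.1 and 20.7 in shLINE_MdV_I and 17.8, 18.9 and 16.5 in shLINE_Orf2. All 3 shLINE_Orf2 libraries lay below the 12 others, and shLINE_MdV_I lay between them and the rest without overlap. The test of any difference among the 5 groups gave an unadjusted p of 0.000152 and an adjusted p of 0.0280 (edgeR quasi-likelihood F test), where 0.944% of all genes passed. The log2 fold change in shLINE_Orf2 was -0.70 ± 0.11 (SE, as for all fold changes) against shLINE_Orf1 (adjusted p = 0.0596), -0.47 ± 0.11 against shLINE_Orf1+LINE-1 (adjusted p = 0.113) and -0.45 ± 0.11 against shControl (adjusted p = 0.161). The call on the F test was lost in 11 of 24 alternatives, over which the adjusted p ran from 5.53e-07 to 0.0848. It held when any shControl or shLINE_Orf1 library was left out, and among the 11 were the 9 that left out a library of another group and the fit with no scaling factor. Pmaip1 had 1 transcript that passed the filter on low counts.

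Perp was at 5.07, 7.26 and 4.77 CPM in shControl, 7.42, 7.74 and 5.13 in shLINE_Orf1, 4.93, 5.11 and 5.17 in shLINE_Orf1+LINE-1, 7.71, 6.74 and 11.1 in shLINE_MdV_I and 4.62, 3.86 and 3.91 in shLINE_Orf2. Perp was highest in shLINE_MdV_I, where all 3 libraries were above the shLINE_Orf1+LINE-1 and shLINE_Orf2 libraries but overlapped shControl. Its log2 fold change in shLINE_Orf2 against shLINE_MdV_I was -1.05 ± 0.21 (edgeR adjusted p = 0.0943), the largest among the members in any of the 8 comparisons, and in shLINE_MdV_I against shControl it was 0.58 ± 0.21 (adjusted p = 0.369). Fas was at 9.0, 11.1 and 9.06 CPM in shControl, 15.4, 12.2 and 11.7 in shLINE_Orf1, 8.31, 8.96 and 8.07 in shLINE_Orf1+LINE-1, 8.39, 8.36 and 12.2 in shLINE_MdV_I and 7.51, 7.68 and 8.06 in shLINE_Orf2. All 3 shLINE_Orf1 libraries were above all shControl libraries, and the shLINE_Orf2 libraries were below all others, by a narrow margin to shLINE_Orf1+LINE-1 replicate 3. For Fas the log2 fold change was 0.43 ± 0.16 in shLINE_Orf1 against shControl (adjusted p = 0.393), -0.75 ± 0.16 in shLINE_Orf2 against shLINE_Orf1 (adjusted p = 0.134) and -0.63 ± 0.16 in shLINE_Orf1+LINE-1 against shLINE_Orf1 (adjusted p = 0.422), which was the smallest p of a member in that comparison.

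Trp53inp1 encodes a nuclear stress protein that promotes p53 activity and autophagy. Trp53inp1 was at 224, 129.5 and 151 CPM in shControl, 205, 170.4 and 132 in shLINE_Orf1, 147, 135 and 129 in shLINE_Orf1+LINE-1, 126, 121 and 126 in shLINE_MdV_I and 94.9, 124 and 116 in shLINE_Orf2. Both shLINE_MdV_I and shLINE_Orf2 lay below the 9 libraries of the other groups, and shControl replicate 1 was the highest. The log2 fold change against shControl was -0.59 ± 0.18 in shLINE_Orf2 (edgeR adjusted p = 0.336) and -0.44 ± 0.18 in shLINE_MdV_I (adjusted p = 0.493). Without the pair of libraries that stand apart they were -0.75 ± 0.15 (adjusted p = 0.0182) and -0.59 ± 0.15 (adjusted p = 0.0498).

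Ei24 encodes a membrane protein of the endoplasmic reticulum. Ei24 was at 267, 261 and 252 CPM in shControl, 379, 253 and 253 in shLINE_Orf1, 257, 255 and 254 in shLINE_Orf1+LINE-1, 242, 234 and 243 in shLINE_MdV_I and 210.2, 208 and 227 in shLINE_Orf2. The shLINE_Orf2 libraries lay below all others, and shLINE_Orf1 replicate 1 lay far above its own replicates. Ei24 in shLINE_Orf2 had a log2 fold change of -0.28 ± 0.13 against shControl (edgeR adjusted p = 0.696) and -0.46 ± 0.13 against shLINE_Orf1 (adjusted p = 0.290). Bbc3 encodes Puma, a BH3-only protein like Noxa. Bbc3 was at 13.4, 20.2 and 16.1 CPM in shControl, 9.68, 15.5 and 14.2 in shLINE_Orf1, 11.7, 13.3 and 12.1 in shLINE_Orf1+LINE-1, 17.7, 18.6 and 18.9 in shLINE_MdV_I and 12.6, 12.97 and 14.4 in shLINE_Orf2. Bbc3 was low in shLINE_Orf1+LINE-1 and shLINE_Orf2 and high in shLINE_MdV_I, while the libraries that stand apart held its lowest and highest values. Its log2 fold change was -0.42 ± 0.17 in shLINE_Orf1+LINE-1 against shControl (adjusted p = 0.481) and -0.47 ± 0.17 in shLINE_Orf2 against shLINE_MdV_I (adjusted p = 0.602).

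Bax permeabilises the outer mitochondrial membrane. Bax was at 275, 389 and 300.5 CPM in shControl, 404, 284 and 335 in shLINE_Orf1, 289, 289.8 and 295 in shLINE_Orf1+LINE-1, 289, 266 and 289 in shLINE_MdV_I and 252, 247 and 286 in shLINE_Orf2. The libraries that stand apart were the highest in their groups, and the shLINE_Orf2 libraries overlapped shControl (log2 fold change -0.29 ± 0.14, edgeR adjusted p = 0.697). Phlda3 encodes a pleckstrin homology protein that restrains Akt. Phlda3 was at 114, 181 and 134 CPM in shControl, 164, 161 and 151 in shLINE_Orf1, 130.3, 138 and 148 in shLINE_Orf1+LINE-1, 127, 139.7 and 149 in shLINE_MdV_I and 127, 130.3 and 129.6 in shLINE_Orf2. Its log2 fold change in shLINE_Orf2 against shControl was -0.15 ± 0.13 (adjusted p = 0.985), and it turned to 0.06 ± 0.09 without the pair of libraries. The other 7 apoptosis genes were Aen, Pidd1, Apaf1, Cdip1, Triap1, Tnfrsf10b and Eda2r. In shLINE_Orf2 against shControl they ran from -0.28 ± 0.18 for the receptor Eda2r to 0.02 ± 0.19 for Tnfrsf10b, and none had an unadjusted p under 0.05 there.

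**Figure D2:**
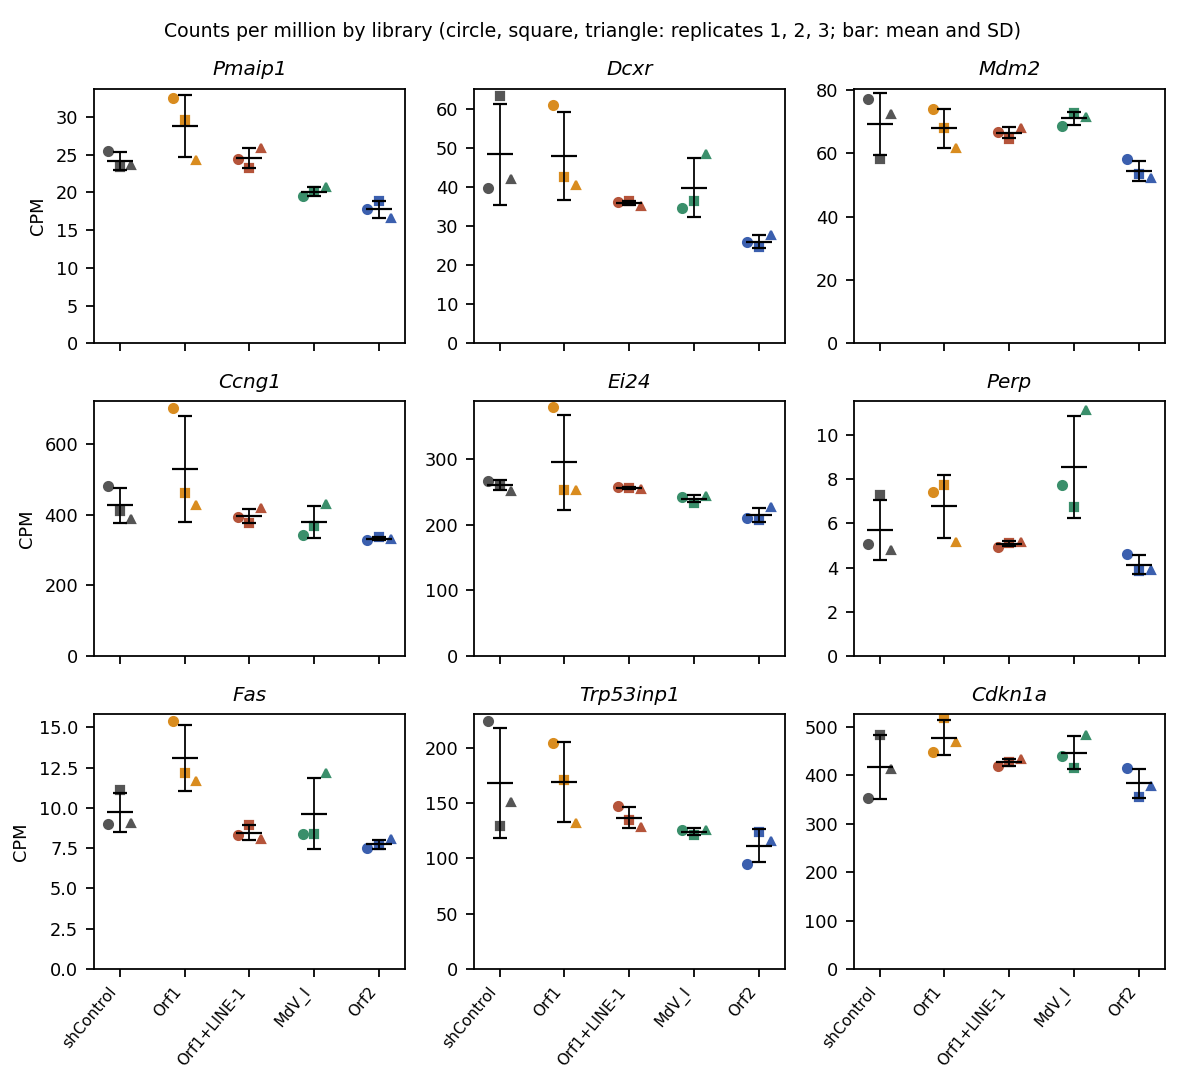
CPM of 9 p53 target genes by library in the 5 groups (points: replicates; black bars: mean and SD of 3 libraries; axes start at 0). For Pmaip1, Dcxr, Mdm2, Ccng1, Ei24, Perp and Fas the 3 shLINE_Orf2 points lie below the 12 others, and for Trp53inp1 and Cdkn1a they overlap at least 1 other group.

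The genes of cell cycle arrest and feedback divided. In shLINE_Orf2 against shControl 7 of 10 had a negative log2 fold change (52.3% of all genes), with a median of -0.12. At an unadjusted p under 0.05, 3 were lower (Mdm2, Gadd45a and Ccng1), where 3.23% of all genes were. None passed the adjusted threshold, which 0.192% of all genes did. Mdm2 was at 77.1, 58.3 and 72.4 CPM in shControl, 73.96, 67.99 and 61.5 in shLINE_Orf1, 66.5, 64.6 and 68.1 in shLINE_Orf1+LINE-1, 68.7, 72.7 and 71.5 in shLINE_MdV_I and 58.1, 53.4 and 52.1 in shLINE_Orf2. The shLINE_Orf2 libraries were below all 12 others, by a narrow margin to shControl replicate 2. Mdm2 in shLINE_Orf2 had a log2 fold change of -0.38 ± 0.11 against shLINE_MdV_I (edgeR adjusted p = 0.321), -0.35 ± 0.11 against shControl (adjusted p = 0.337) and -0.28 ± 0.11 against shLINE_Orf1+LINE-1 (adjusted p = 0.391). Without the pair of libraries the value against shControl was -0.45 ± 0.07 (adjusted p = 0.00372).

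Ccng1 encodes cyclin G1, which brings a phosphatase to Mdm2. Ccng1 was at 482, 409.8 and 387 CPM in shControl, 701, 462 and 427 in shLINE_Orf1, 393, 378 and 418 in shLINE_Orf1+LINE-1, 342, 368 and 429.7 in shLINE_MdV_I and 328, 335 and 331 in shLINE_Orf2. The 3 shLINE_Orf2 libraries were close together and below all others, and shLINE_Orf1 replicate 1 was far above its own replicates. Ccng1 had a log2 fold change of -0.36 ± 0.16 in shLINE_Orf2 against shControl (edgeR adjusted p = 0.642), -0.68 ± 0.16 against shLINE_Orf1 (adjusted p = 0.148), and -0.42 ± 0.16 in shLINE_Orf1+LINE-1 against shLINE_Orf1 (adjusted p = 0.422). Without the pair of libraries the last value was -0.15 ± 0.10.

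Cdkn1a, which encodes p21, did not share this pattern. Cdkn1a was at 352, 483 and 414 CPM in shControl, 447, 517 and 468 in shLINE_Orf1, 419, 426 and 434 in shLINE_Orf1+LINE-1, 439, 416 and 483 in shLINE_MdV_I and 415, 356 and 378 in shLINE_Orf2. The shLINE_Orf2 libraries overlapped shControl and lay below the other 3 groups. The log2 fold change was -0.32 ± 0.11 against shLINE_Orf1 (edgeR adjusted p = 0.417) and -0.12 ± 0.11 against shControl (adjusted p = 0.992). Trp53 was at 116, 107 and 139 CPM in shControl, 85.2, 113 and 119 in shLINE_Orf1, 123, 124 and 121 in shLINE_Orf1+LINE-1, 137, 139 and 134 in shLINE_MdV_I and 112, 108 and 118 in shLINE_Orf2. Trp53 was lowest in shLINE_Orf1 replicate 1, and its shLINE_MdV_I and shLINE_Orf2 libraries did not overlap (log2 fold change of shLINE_Orf2 against shLINE_MdV_I -0.28 ± 0.12, adjusted p = 0.842). Against shControl the value of Trp53 in shLINE_Orf2 was -0.10 ± 0.12 (adjusted p = 0.995), and it turned to 0.03 without shControl replicate 3.

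Mdm4 holds p53 inactive beside Mdm2. Mdm4 was at 56.3, 29.04 and 41.8 CPM in shControl, 39.1, 35.8 and 34.6 in shLINE_Orf1, 37.7, 36.1 and 35.8 in shLINE_Orf1+LINE-1, 35.1, 40.6 and 31.7 in shLINE_MdV_I and 39.2, 48.97 and 42.05 in shLINE_Orf2. Its shControl libraries spanned the widest range of any group, and the fold change of shLINE_Orf2 against shControl, 0.04 ± 0.18 (edgeR adjusted p = 0.998), changed sign without shControl replicate 2 (-0.18), without shLINE_Orf2 replicate 2 (-0.05) and without the pair of libraries (-0.17 ± 0.12). Gadd45a is a stress sensor linked to arrest and repair. Gadd45a was at 14.6, 16.8 and 18.1 CPM in shControl, 14.7, 13.7 and 13.7 in shLINE_Orf1, 13.6, 13.9 and 12.3 in shLINE_Orf1+LINE-1, 16.6, 15.6 and 16.6 in shLINE_MdV_I and 12.8, 13.2 and 13.1 in shLINE_Orf2. Both shLINE_Orf2 and shLINE_Orf1+LINE-1 lay below every shControl library. Against shControl the log2 fold change of Gadd45a was -0.34 ± 0.11 (adjusted p = 0.341) in the former and -0.31 ± 0.11 (adjusted p = 0.372) in the latter, where it had the smallest p of the members.

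Ppm1d encodes a phosphatase that switches off damage signalling. Ppm1d was at 36.1, 39.7 and 42.1 CPM in shControl, 33.3, 44.4 and 42.1 in shLINE_Orf1, 41.9, 44.8 and 45.9 in shLINE_Orf1+LINE-1, 43.8, 42.4 and 42.8 in shLINE_MdV_I and 34.5, 37.4 and 36.9 in shLINE_Orf2. The shLINE_Orf2 libraries lay below shLINE_Orf1+LINE-1 (log2 fold change -0.29 ± 0.11, edgeR adjusted p = 0.399) and shLINE_MdV_I (-0.25 ± 0.11, adjusted p = 0.872) and overlapped shControl. Zmat3, a zinc finger RNA-binding protein gene, ran the other way. Zmat3 was at 59.6, 61.4 and 65.5 CPM in shControl, 40.5, 85.5 and 70.9 in shLINE_Orf1, 69.9, 73.9 and 71.7 in shLINE_Orf1+LINE-1, 72.6, 75.9 and 70.8 in shLINE_MdV_I and 76.5, 77.6 and 76.2 in shLINE_Orf2. All libraries of shLINE_Orf2, shLINE_MdV_I and shLINE_Orf1+LINE-1 were above shControl, while shLINE_Orf1 held both the lowest and the highest library. The log2 fold change in shLINE_Orf2 against shControl was 0.30 ± 0.18 (adjusted p = 0.865). The polo-like kinase genes Plk2 and Plk3 stood at -0.27 ± 0.13 and 0.20 ± 0.17 in the same comparison, and without the pair of libraries Plk2 was lower and passed (-0.41 ± 0.09, adjusted p = 0.0228).

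Among the 5 metabolism and stress genes, Dcxr stood apart from the other 4. Dcxr reduces xylulose and dicarbonyls. Dcxr was at 39.6, 63.2 and 42.03 CPM in shControl, 60.9, 42.4 and 40.5 in shLINE_Orf1, 36.02, 36.3 and 35.2 in shLINE_Orf1+LINE-1, 34.7, 36.3 and 48.4 in shLINE_MdV_I and 25.8, 24.5 and 27.6 in shLINE_Orf2. The shLINE_Orf2 libraries were below all others, and shControl replicate 2 and shLINE_Orf1 replicate 1 were the highest of the 15. Dcxr in shLINE_Orf2 had a log2 fold change of -0.89 ± 0.19 against shControl (edgeR adjusted p = 0.0891), -0.88 ± 0.19 against shLINE_Orf1 (adjusted p = 0.134), -0.61 ± 0.19 against shLINE_MdV_I (adjusted p = 0.406) and -0.46 ± 0.19 against shLINE_Orf1+LINE-1 (adjusted p = 0.443). Without the pair of libraries the value against shControl was smaller, -0.65 ± 0.12, and passed the test (adjusted p = 0.00646). In shLINE_Orf1+LINE-1 against shLINE_Orf1 the log2 fold change was -0.42 ± 0.19 (adjusted p = 0.422), and -0.20 ± 0.12 without the pair.

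Ephx1 detoxifies epoxides. Ephx1 was at 308, 306 and 298 CPM in shControl, 383, 367 and 349 in shLINE_Orf1, 357, 364 and 352 in shLINE_Orf1+LINE-1, 309, 289 and 334 in shLINE_MdV_I and 362, 308 and 326 in shLINE_Orf2. All libraries of shLINE_Orf1 and of shLINE_Orf1+LINE-1, the groups that carry the Orf1 hairpin, were above all of shControl and shLINE_MdV_I. The log2 fold change against shControl was 0.27 ± 0.09 (edgeR adjusted p = 0.330) and 0.24 ± 0.09 (adjusted p = 0.448). Gdf15 encodes a secreted stress cytokine. Gdf15 was at 13.6, 18.1 and 13.01 CPM in shControl, 15.5, 24.5 and 18.8 in shLINE_Orf1, 16.1, 17.1 and 20.5 in shLINE_Orf1+LINE-1, 13.5, 13.9 and 13.04 in shLINE_MdV_I and 15.9, 15.8 and 16.5 in shLINE_Orf2. Its shLINE_Orf1 libraries overlapped shControl through replicate 2 of shControl and replicate 1 of shLINE_Orf1, the libraries that stand apart. Gdf15 in shLINE_Orf1 had a log2 fold change of 0.40 ± 0.16 (adjusted p = 0.427), and without them it was 0.70 ± 0.13 and passed (adjusted p = 0.0181).

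Sesn1 and Sesn2 encode sestrins, which restrain the growth kinase mTORC1. Sesn1 was at 34.6, 32.1 and 33.9 CPM in shControl, 35.7, 34.5 and 35.6 in shLINE_Orf1, 32.6, 29.9 and 33.6 in shLINE_Orf1+LINE-1, 36.7, 37.1 and 37.2 in shLINE_MdV_I and 33.7, 36.04 and 34.05 in shLINE_Orf2. The shLINE_MdV_I libraries were above all others by a small amount (log2 fold change against shControl 0.14 ± 0.08, edgeR adjusted p = 0.722), and shLINE_Orf2 stood at 0.04 ± 0.08. Sesn2 was at 139, 145 and 167 CPM in shControl, 98.2, 150.0 and 134 in shLINE_Orf1, 123, 134 and 140.2 in shLINE_Orf1+LINE-1, 156, 140.0 and 145 in shLINE_MdV_I and 131, 133 and 133 in shLINE_Orf2. Its shLINE_Orf2 libraries were below all of shControl and shLINE_MdV_I, with a log2 fold change against shControl of -0.18 ± 0.13 (adjusted p = 0.933).

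The 5 genes of DNA repair and nucleotide supply showed no shared direction in shLINE_Orf2 against shControl. Of them 2 were negative (52.3% of all genes), with a median of 0.01. None had an unadjusted p under 0.05, where 3.23% of all genes were lower and 3.78% higher. Ercc5 encodes the XPG endonuclease of nucleotide excision repair. Ercc5 was at 46.3, 33.9 and 43.8 CPM in shControl, 49.1, 49.4 and 45.5 in shLINE_Orf1, 42.9, 45.7 and 44.3 in shLINE_Orf1+LINE-1, 49.01, 58.5 and 50.4 in shLINE_MdV_I and 48.3, 47.5 and 44.8 in shLINE_Orf2. All shLINE_MdV_I libraries were above all of shControl, shLINE_Orf1+LINE-1 and shLINE_Orf2, and the log2 fold change against shControl, 0.35 ± 0.11 (edgeR adjusted p = 0.278), had the smallest p of the members in that comparison. The damage sensors Xpc and Ddb2, the translesion polymerase gene Polk and the ribonucleotide reductase gene Rrm2b had values in shLINE_Orf2 against shControl of 0.01 ± 0.12, 0.47 ± 0.28, -0.14 ± 0.19 and -0.08 ± 0.20. Ddb2 was higher in all 3 shLINE_Orf2 libraries, at 2.73, 2.76 and 3.28 CPM, than in shControl, at 2.21, 2.10 and 2.04.

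**Figure D3:**
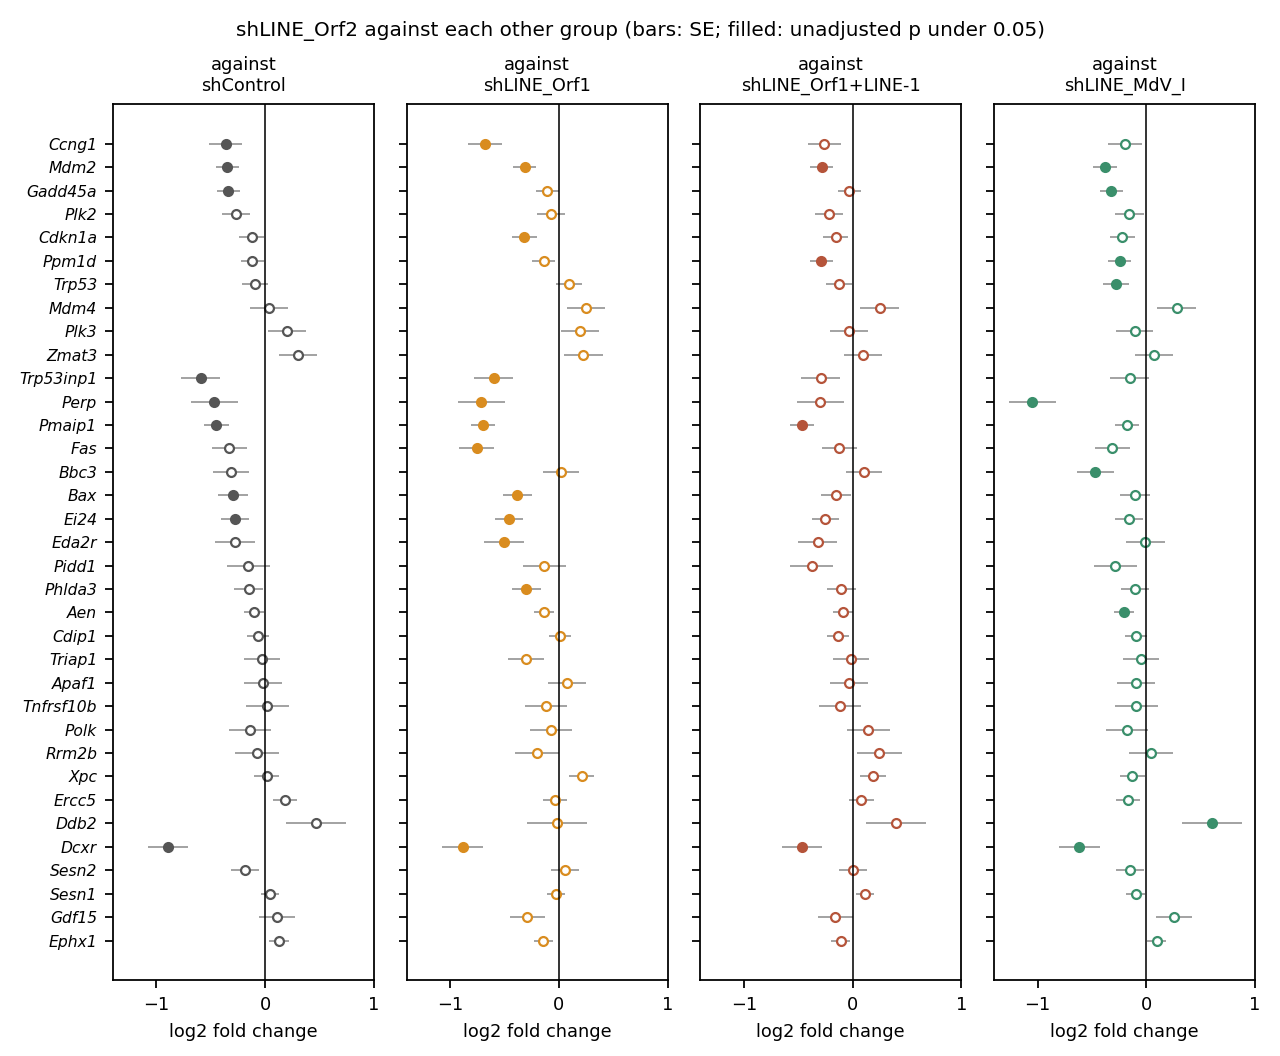
Log2 fold change of the 35 p53 target genes in shLINE_Orf2 against each of the other 4 groups (points; bars: SE; filled points: unadjusted p under 0.05), ordered by role as in the heat map. The 4 panels share the shLINE_Orf2 libraries, and 25, 26, 26 and 29 of the 35 points lie left of 0, from the first panel to the last.

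Set side by side, the 8 comparisons had 0 members called at an adjusted p under 0.05 (edgeR, quasi-likelihood). In shLINE_Orf2 against shControl the median log2 fold change of the members was -0.12, against -0.01 for all genes, and 25 of 35 (71.4%) were negative, against 52.3% of all genes. At an unadjusted p under 0.05, 9 were lower and 0 higher, where 3.23% and 3.78% of all genes were. All genes called made up 0.192%. limma-voom called 6 members, where it called 2.53% of all genes, and DESeq2 2 (Pmaip1 and Dcxr), where it called 1.22%. Without the pair of libraries edgeR called 6, all lower: Mdm2, Plk2, Pmaip1, Trp53inp1, Dcxr and Ei24, where 1.77% of all genes passed. Leaving out shControl replicate 2 alone, the library of the pair in this comparison, gave 0 (0.0583% of all genes). The 6 came with shLINE_Orf1 replicate 1, a library outside this comparison, left out of the shared fit as well.

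The 3 further comparisons of shLINE_Orf2 gave members' medians of -0.14 against shLINE_Orf1 (26 negative, 48.4% of all genes; 0% called), -0.15 against shLINE_MdV_I (29 negative, 47.9%; 0.112%) and -0.12 against shLINE_Orf1+LINE-1 (26 negative, 48.0%; 0.238%), while the medians of all genes were 0.01 in each. The members lower at an unadjusted p under 0.05 numbered 12, 8 and 4 (5.87%, 2.50% and 4.15% of all genes). Higher were 0, 1 and 0 (5.55%, 2.95% and 4.85% of all genes), the 1 being Ddb2. limma-voom called 8, 6 and 7 members, where it called 5.50%, 3.44% and 10.2% of all genes. DESeq2 called 4, 1 and 1, where it called 0.826%, 0.786% and 1.77%. Without the pair of libraries edgeR called 2 against shLINE_Orf1 (Pmaip1 and Dcxr; 0.156% of all genes), 4 against shLINE_MdV_I (Bbc3, Perp, Mdm2 and Dcxr; 1.13%) and 6 against shLINE_Orf1+LINE-1 (Mdm2, Ppm1d, Pmaip1, Pidd1, Dcxr and Ei24; 3.69%). The comparisons with shLINE_MdV_I and shLINE_Orf1+LINE-1 hold neither library of the pair, which enters them only through the shared fit. With no scaling factor the members' median against shLINE_Orf1 was -0.06 and that of all genes 0.09. A number in the library descriptions was 12 in shLINE_MdV_I replicates 2 and 3 and in shLINE_Orf1 replicate 1. It was 1 in all other libraries. With this number as a covariate, 24 members were negative against shLINE_MdV_I, and their median was -0.24.

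In shLINE_Orf1 against shControl the members' median was 0.07 and 13 of 35 were negative (51.4% of all genes), where 0.178% of all genes were called. At an unadjusted p under 0.05, Ephx1, Fas, Gdf15 and Pmaip1 were higher (0.25 ± 0.11 for Pmaip1; 5.34% of all genes) and Gadd45a was lower (-0.23 ± 0.11; 5.20%). With no scaling factor the median was 0.00172. DESeq2 called 0 members, where it called 1.41% of all genes. limma-voom called 2 (Gadd45a and Gdf15), where it called 4.21% of all genes. Gdf15 was the 1 call of edgeR without the pair of libraries (0.903% of all genes). Adding LINE-1 to the Orf1 hairpin gave a members' median of -0.12 with 23 negative (50.9% of all genes) against shLINE_Orf1, where no gene was called (0%). Fas, Ccng1, Dcxr and Rrm2b were lower at an unadjusted p under 0.05 (6.06% of all genes) and 0 members higher (5.03%). limma-voom called 1 (Fas) and DESeq2 0, where they called 2.64% and 0.132% of all genes. The members' median for that comparison was -0.03 with no scaling factor. Without the pair of libraries it was -0.07, and edgeR called 0 members (0% of all genes). Of the genes named, only Fas then kept an unadjusted p under 0.05 (-0.49 ± 0.15). Ccng1, Dcxr and Rrm2b were at -0.15 ± 0.10, -0.20 ± 0.12 and -0.21 ± 0.16, while Cdkn1a, Bbc3 and Gdf15 were lower at that p.

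In shLINE_Orf1+LINE-1 against shControl the members' median was -0.03, with 20 negative (53.7% of all genes), where 0.139% of all genes were called. Gadd45a, Bbc3 and Dcxr (-0.43 ± 0.19) were lower (4.53% of all genes) and Ephx1 was higher (4.23%) at an unadjusted p under 0.05. limma-voom called 2 (Gadd45a and Ephx1), where it called 3.58% of all genes. DESeq2 called 0 (1.41% of all genes), as did edgeR without the pair of libraries (2.29%). In shLINE_MdV_I against shControl the median was 0.03, with 16 negative (52.4% of all genes), where 0.594% of all genes were called. Ercc5 and Perp were higher (4.11% of all genes) and Trp53inp1 and Pmaip1 (-0.27 ± 0.11) lower (4.52%) at an unadjusted p under 0.05. limma-voom and DESeq2 called 0 (2.61% and 2.01% of all genes). Without the pair of libraries edgeR called 1, Trp53inp1 (2.53%). For any difference among the 5 groups, edgeR called Pmaip1 alone with all libraries and 9 members without the pair, where 6.03% of all genes passed.

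Replicates of the members lay closest together in shLINE_Orf1+LINE-1, with a median SD of 0.07 on the log2 CPM scale, followed by shLINE_MdV_I (0.08) and shLINE_Orf2 (0.09). In shControl and shLINE_Orf1, which hold the libraries that stand apart, it was 0.23 and 0.26. All genes showed the same order, with 0.10, 0.12, 0.12, 0.23 and 0.29. Across the 15 libraries the 595 pairs of members had a median Pearson correlation of log2 CPM of 0.06, and 0.18 without the pair of libraries. These are descriptions, since the libraries share groups and scaling. The closest pairs were Trp53inp1 with Eda2r (0.88 with all libraries and 0.88 without the pair) and Pmaip1 with Ccng1 (0.87 and 0.86).

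The table counts transcripts, so isoforms could be looked at. Of 130 member transcripts tested, edgeR's quasi-likelihood F test called 0, where 0.0449% of all 48973 transcripts passed, and 20 had an unadjusted p under 0.05 (5.68% of all transcripts). The smallest adjusted p was 0.149, for the single Pmaip1 transcript. The coding transcript of Trp53inp1 was at 125 CPM in shControl, 115 in shLINE_Orf1, 89.0 in shLINE_Orf1+LINE-1, 84.8 in shLINE_MdV_I and 72.2 in shLINE_Orf2 (means, n = 3; adjusted p = 0.357). Its main non-coding transcript was at 42.0, 53.1, 49.1, 39.7 and 38.2 CPM in the same order. A minor coding transcript of Ephx1, of 1699 bases, was at 5.57 CPM in shLINE_Orf1+LINE-1 and between 1.81 and 3.13 in the other groups (adjusted p = 0.312).

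Cdkn1a divided almost evenly between 2 coding transcripts in GENCODE M21, one from the upstream start (chr17:29090979-29099701) and one from the downstream start (chr17:29093769-29100722). The printed Cdkn1a promoter lies before the upstream start. The upstream form took 48.7%, 53.5% and 49.5% of Cdkn1a counts in shControl and 49.7%, 52.0% and 48.8% in shLINE_Orf2. In shLINE_Orf1+LINE-1 it took 44.5%, 45.6% and 48.4% and in shLINE_MdV_I 46.5%, 47.4% and 47.3%, so that both groups lay below all shControl libraries. The downstream form ended later as well, and the split of reads between forms is an estimate whose error the table does not give. The F test gave an adjusted p of 0.816 for the downstream form and 0.964 for the upstream form.

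**Figure D4:**
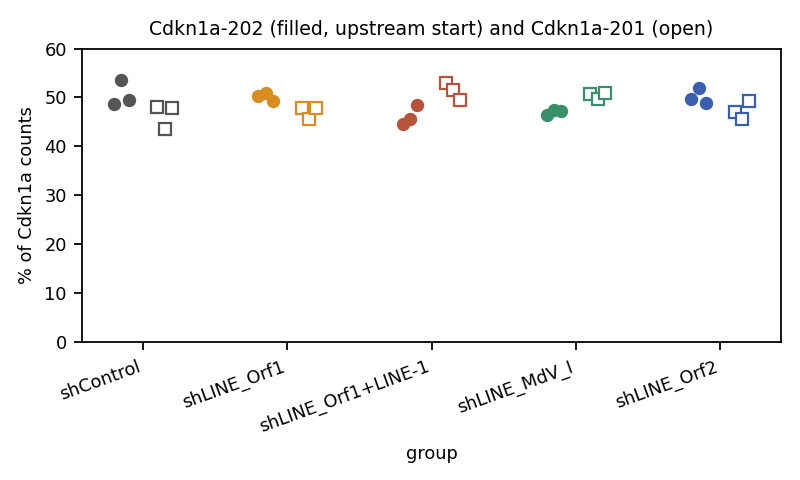
Share of Cdkn1a counts in the upstream-start form (filled circles) and the downstream-start form (open squares) by group, 1 point per library, on an axis from 0. The shares lie between 43.5% and 53.5%, and the open squares are above the filled circles in shLINE_Orf1+LINE-1 and shLINE_MdV_I.

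Other genes of the pathway were counted in the same fit. Of 30 p53 regulators, 28 were tested and edgeR called 0 in all 9 tests (0% to 0.944% of all genes). In shLINE_Orf2 against shControl 14 were negative (52.3% of all genes). There 0 had an unadjusted p under 0.05, where 3.23% of all genes were lower and 3.78% higher. DESeq2 also called 0 in all 9 tests (0.132% to 6.04% of all genes). limma-voom called at most 2, in shLINE_Orf1 against shControl (4.21% of all genes) and in shLINE_Orf2 against shLINE_Orf1 (5.50%). Of 34 further p53 targets, 31 were tested. In shLINE_Orf2 against shControl 6 were lower and 0 higher at an unadjusted p under 0.05 (3.23% and 3.78% of all genes). The 1 called there was Ass1 (0.192% of all genes). The F test called 3 of the 31 (Ass1, Btg2 and Ddit4), where 0.944% of all genes passed. Each alternative called the most in its test over all groups. DESeq2 called 8 there (6.04% of all genes), limma-voom 12 (10.2%) and edgeR without the pair of libraries 12 (6.03%). Ass1, an arginine synthesis gene, had a lower mean in every other group than in shControl, where it was at 3.32 ± 0.396 CPM (SD, n = 3). It was at 1.78 ± 0.0361 in shLINE_Orf1, 1.41 ± 0.131 in shLINE_Orf2, 1.45 ± 0.376 in shLINE_MdV_I and 1.55 ± 0.257 in shLINE_Orf1+LINE-1. Against shControl edgeR called Ass1 in shLINE_Orf2 (log2 fold change -1.24 ± 0.21, adjusted p = 0.0330) and in shLINE_MdV_I (-1.19 ± 0.21, adjusted p = 0.0170). DESeq2 and limma-voom called it in every group against shControl. The antiproliferative gene Btg2 was lower in shLINE_Orf2 than in shLINE_MdV_I (-0.58 ± 0.10, adjusted p = 0.0321), and the mTORC1 inhibitor gene Ddit4 was higher in shLINE_Orf2 than in shLINE_Orf1+LINE-1 (1.19 ± 0.19, adjusted p = 0.0192). Over 16 alternatives the 2 calls of Ass1 were lost in 8 and 5, that of Btg2 in 7 and that of Ddit4 in 5.

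Genes of cell division that the DREAM complex represses downstream of p53 and p21 were tested as a list of 16, with Cdk1, Ccnb1 and Plk1 among them. edgeR called 0 of 16 in all 9 tests (0% to 0.944% of all genes). DESeq2 called at most 1, in shLINE_Orf2 against shLINE_Orf1+LINE-1 (1.77% of all genes) and in its test over all groups (6.04%). limma-voom called at most 5, in its test over all groups (10.2%). In shLINE_Orf2 against shControl 15 of 16 were positive, with a median of 0.15 and 5 higher and 1 lower at an unadjusted p under 0.05, where 3.78% of all genes were higher, 3.23% lower and 52.3% negative. The medians in shLINE_Orf1 and shLINE_Orf1+LINE-1 were both 0.16, and these comparisons share the shControl libraries. In shLINE_MdV_I against shControl the median was 0.04, with 6 of 16 negative. Without shControl in the comparison, the median of shLINE_Orf2 was -0.02 against shLINE_Orf1 (9 negative), 0.10 against shLINE_MdV_I (4 negative) and 0.03 against shLINE_Orf1+LINE-1 (7 negative).

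Of the 35 members, 9 share annotated exon bases with another gene in GENCODE M21. Whether strand was kept is not stated, so reads in a shared stretch cannot be told apart there. The partner held a mean of more than 1 count per library for 3 of them: Cdip1 (Hmox2, at 2439), Ddb2 (Acp2, at 1789, against 113 for Ddb2 itself) and Bax (Gm45808, at 2.13, against 13940). The values of Cdip1 and Ddb2 are therefore uncertain.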

How the data were processed

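RNA of 15 libraries was read with a SMART-seq2-type protocol, per the labels' protocols. The authors deposited expected counts (estimated reads per transcript), made with cutadapt and RSEM on mm10, per the submitters' processing notes. Versions and annotation were not given in the sources used here. The authors' deposited mixed-model table holds a t score, a p-value and an adjusted p-value per gene. Transcripts were matched to GENCODE M21 without version and summed to 34910 genes, and rounded. The 1347 transcripts without a gene held 0.595% to 0.65% of counts and stayed out, as did 1 blank row. edgeR 4.0.16 (R 4.3.3) fitted all 15 libraries at once (TMM scaling, filterByExpr with a minimum count of 10, robust quasi-likelihood test, 8 contrasts and an F test over the 5 groups), with Benjamini-Hochberg adjustment over 15141 genes and a threshold of 0.05. The fit was tested on simulated data that held no outlying library, so that test does not cover the pair that stands apart. Log2 CPM used a prior count of 2. Alternatives used limma-voom 3.58.1 with quality weights, DESeq2 1.42.0, other scalings and filters, a block for the replicate number, a covariate for the number that ends each library's description, and libraries left out. Values per library are given for members called, for the 3 members with the smallest p in each test and for 14 fixed genes, with Ei24 and others added where a pattern holds them. The members and lists were chosen with earlier results of these data known.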

Additional observations from a re-analysis of the deposited data

How the results depend on the processing

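The number of members called by edgeR with all libraries was 0 in each of the 8 comparisons and 1 in the F test over the 5 groups, and both moved with the setting. Without shLINE_Orf1 replicate 1 and shControl replicate 2, shLINE_Orf1 had 1 call against shControl (0.903% of all genes). In the same setting shLINE_Orf2 had 6 (1.77%) and shLINE_MdV_I 1 (2.53%). The calls of shLINE_Orf2 were 2 against shLINE_Orf1 (0.156%), 4 against shLINE_MdV_I (1.13%) and 6 against shLINE_Orf1+LINE-1 (3.69%). The F test gave 9 (6.03% of all genes). Against shControl limma-voom called 2 for shLINE_Orf1 (4.21% of all genes), 6 for shLINE_Orf2 (2.53%) and 2 for shLINE_Orf1+LINE-1 (3.58%). It called 1 for shLINE_Orf1+LINE-1 against shLINE_Orf1 (2.64%). For shLINE_Orf2 it called 8 against shLINE_Orf1 (5.50%), 6 against shLINE_MdV_I (3.44%) and 7 against shLINE_Orf1+LINE-1 (10.2%). Its F test gave 12 (10.2% of all genes). DESeq2 called 2 for shLINE_Orf2 against shControl (1.22% of all genes) and 4, 1 and 1 against the same 3 groups (0.826%, 0.786% and 1.77%). Its test over all groups gave 8 (6.04% of all genes). With no scaling factor shLINE_Orf2 against shControl gave 1 (0.218% of all genes) and the F test 0 (0.687%). With no filter shLINE_Orf2 gave 1 against shLINE_Orf1 (0.0451%) and 1 against shLINE_MdV_I (0.0820%), and the F test gave 2 (0.779%). With the description number as a covariate shLINE_Orf2 against shControl gave 1 (0.291%) and the F test 3 (1.92%), and fitting only the compared groups gave 5 against shLINE_MdV_I (1.36% of all genes called) and 7 against shLINE_Orf1+LINE-1 (7.09%). Leaving out 1 library gave 0 to 1 calls for shLINE_Orf2 against shLINE_Orf1 (1 without shLINE_Orf1 replicate 3, with 0.00647% of all genes). The other comparisons then gave 0. The F test gave 0 to 2 with 1 library left out. It gave 0 without any 1 library of shLINE_Orf2, shLINE_MdV_I or shLINE_Orf1+LINE-1 (0.149% to 0.713% of all genes). Without shLINE_Orf1 replicate 1 it gave 2 (2.35%). The cause of these shifts was not tested.

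With the replicate number as a block, 0 members were called in the 8 comparisons and 0 in the F test, where Pmaip1 lost its call. Same-numbered libraries correlated between -0.27 and 0.18 in their deviations from the group means. With 3 libraries a group, such correlations cannot decide whether same-numbered libraries were made together.

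The members' median for shLINE_Orf1 against shControl was 0.00172 with no scaling factor. For shLINE_Orf2 against shControl it was -0.17 without the pair of libraries, -0.16 with limma-voom, and between -0.174 (without shControl replicate 2) and -0.0908 with 1 library left out. For shLINE_Orf1+LINE-1 against shLINE_Orf1 it was -0.0345 with no scaling factor and -0.0412 with limma-voom. For shLINE_Orf2 it was -0.0555 with no scaling factor and -0.19 with limma-voom against shLINE_Orf1, -0.24 with the covariate against shLINE_MdV_I and -0.14 with limma-voom against shLINE_Orf1+LINE-1. Medians near 0 changed sign for shLINE_MdV_I (-0.01 without its replicate 3) and shLINE_Orf1+LINE-1 (0.00132 without shControl replicate 1) against shControl. In shLINE_Orf2 against shControl, Mdm4 turned to -0.174 without the pair of libraries, -0.176 without shControl replicate 2 and -0.05 without shLINE_Orf2 replicate 2, and with 1 library left out it ran up to 0.296. Trp53 turned to 0.0256 without shControl replicate 3. Phlda3 turned to 0.0551 without the pair and 0.0550 without shControl replicate 2, and with 1 library left out it ran down to -0.284.

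Over all genes the count of calls ran from 1 to 638 for shLINE_Orf1 (27 as reported), 3 to 383 for shLINE_Orf2 (29), 22 to 395 for shLINE_MdV_I (90) and 2 to 542 for shLINE_Orf1+LINE-1 (21) against shControl. It ran from 0 to 399 for shLINE_Orf1+LINE-1 against shLINE_Orf1 (0), 0 to 832, 4 to 521 and 0 to 1549 for shLINE_Orf2 against shLINE_Orf1 (0), shLINE_MdV_I (17) and shLINE_Orf1+LINE-1 (36), and 23 to 1548 in the F test (143). No member transcript was called under any alternative. The common coefficient of variation between replicates was 0.158. Counting error weighs most on the members at a few CPM, such as Ddb2 and Perp.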

Other observations

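The authors' deposited table tests a group term whose samples the sources used here do not give, under a name that points to young LINE-1. The authors' deposited table lists all 35 members, and 2 of them have there a p-value under 0.05, Cdip1 (t = 3.18, p = 0.00727) and Ddb2 (t = -2.43, p = 0.0306), where 2.66% of its 17921 genes do. In the authors' deposited table a t below 0 is given for 12 of the 35 members, against 39.1% of all genes, and the adjusted p is 1 for every gene. Pmaip1 has t = 0.529 (p = 0.633) and Dcxr t = 0.991 (p = 0.395) in the authors' deposited table. Exons of Cdip1 and Ddb2 overlap a gene on the opposite strand that holds a mean of more than 1 count per library.

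Of the member pairs, Cdkn1a and Mdm4 had the most negative correlation of log2 CPM, -0.87 over 15 libraries and -0.88 over 13, a description over libraries that share groups. No pattern beyond those in the report is put forward.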
